A study of Drosophila melanogaster with 6 samples.

Results

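The genes described here encode the nuclear pore complex and the soluble machinery that carries cargo through it: all genes whose FlyBase symbol is Nup followed by a digit, and 16 further genes named individually. Of 37 genes named, 36 were found among the 17753 gene identifiers of the expression tables, and all 36 passed the filter on low counts. Pen, an importin alpha gene, was not analysed, because the identifier it carries in the annotation matched no row. The gene named Mtor in the selection is listed as Mgtor (Megator) in the annotation and is called Mgtor below. The rule names genes and uses no measured value, but the set was chosen with earlier results of these data known.

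RNA-seq libraries of polyadenylated RNA of Drosophila melanogaster larvae in their last instar came from the eye disc and from the antennal disc, the joined epithelial sacs that form the adult eye, the antenna and much of the head. There were 3 biological replicates of each tissue, each a pool of 30 discs parted by hand, all from yw;+;+ larvae (mutant for yellow and white, with no transgene) and without treatment. Both tissues therefore shared genotype and stage and differed in the dissected part. The tissues were compared for the level of each gene.

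The nuclear pore complex is a large ring built into the nuclear envelope from many copies of each nucleoporin. A scaffold of Y-shaped complexes and an inner ring holds a central channel lined with phenylalanine-glycine repeats, with filaments on the cytoplasmic face and a basket on the nuclear face. Importins and exportins carry proteins through the channel, and the small GTPase Ran, kept GTP-bound in the nucleus by Rcc1 and GDP-bound in the cytoplasm by RanGAP, gives the traffic its direction.

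Estimated counts summed to between 17583601 and 29093991 per library, and every member had at least 369 counts in every library. Levels are given as CPM, counts per-million of the library after TMM scaling. Eye disc replicate 2 stood apart, with the fewest counts, the smallest TMM factor (0.891 against 1.01 to 1.04) and 12.5% of its counts in its top 10 genes against 6.25% to 6.75% elsewhere. The tissue labels were met by their markers: 6 eye disc genes (eya, so, ey, gl, sev and toy) summed to 1698 to 1915 CPM in eye disc libraries and 159.5 to 215.0 CPM in antennal disc libraries, and 6 antennal genes (Dll, ss, disco, fd96Ca, H15 and disco-r) to 52.4 to 84.0 against 698.8 to 837.2 CPM.

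Most nuclear pore and transport genes were lower in eye disc than in antennal disc, by 1.59-fold or less. Of the 36 members, 25 were higher in antennal disc, none was higher in eye disc and 11 passed in neither direction. A call is a Benjamini-Hochberg adjusted p under 0.05 over 9901 genes in the quasi-likelihood test of edgeR. That is 69.4% of the members, where 11.7% of all tested genes were called higher in antennal disc and 26.4% in either direction. Among the 5142 tested genes at or above the level of the lowest member (Nup37, mean 29.1 CPM over 6 libraries), the share was 18.1%. No member was higher in eye disc at an unadjusted p under 0.05 by edgeR either, and DESeq2 called none in that direction; 20.9% of all tested genes were higher in eye disc at that unadjusted p.

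All 36 log2 fold changes (eye disc divided by antennal disc) lay below 0, as did those of 49.5% of all tested genes. They ran from -0.67 for Gp210 to -0.01 for Nup35, with a median of -0.25, a 1.19-fold difference, against a median of 0.0046 over all tested genes. The quartiles were -0.31 and -0.18 for the members and -0.18 and 0.41 for all tested genes. The 3 libraries of each tissue did not overlap for 32 members, all with antennal disc above, and this held for 22.2% of all tested genes in that direction and 45.6% in either. These values over all tested genes were not limited to genes at the level of the members. Gp210 differed 1.59-fold, and the member with the next largest difference, Nup107, 1.35-fold.

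Summed over the 36 members, the libraries held 6184, 5867 and 6141 CPM in eye disc replicates 1, 2 and 3, and 7296, 7216 and 7437 CPM in antennal disc replicates 1, 2 and 3. These sums equal 0.587% to 0.618% of the TMM-scaled size of an eye disc library, which is not its raw count total. For antennal disc libraries they equal 0.722% to 0.744% of that size, with no overlap. The libraries are pools of many cells, so that fewer cells of a type with high levels and less RNA per cell cannot be told apart.

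**Figure D1:**
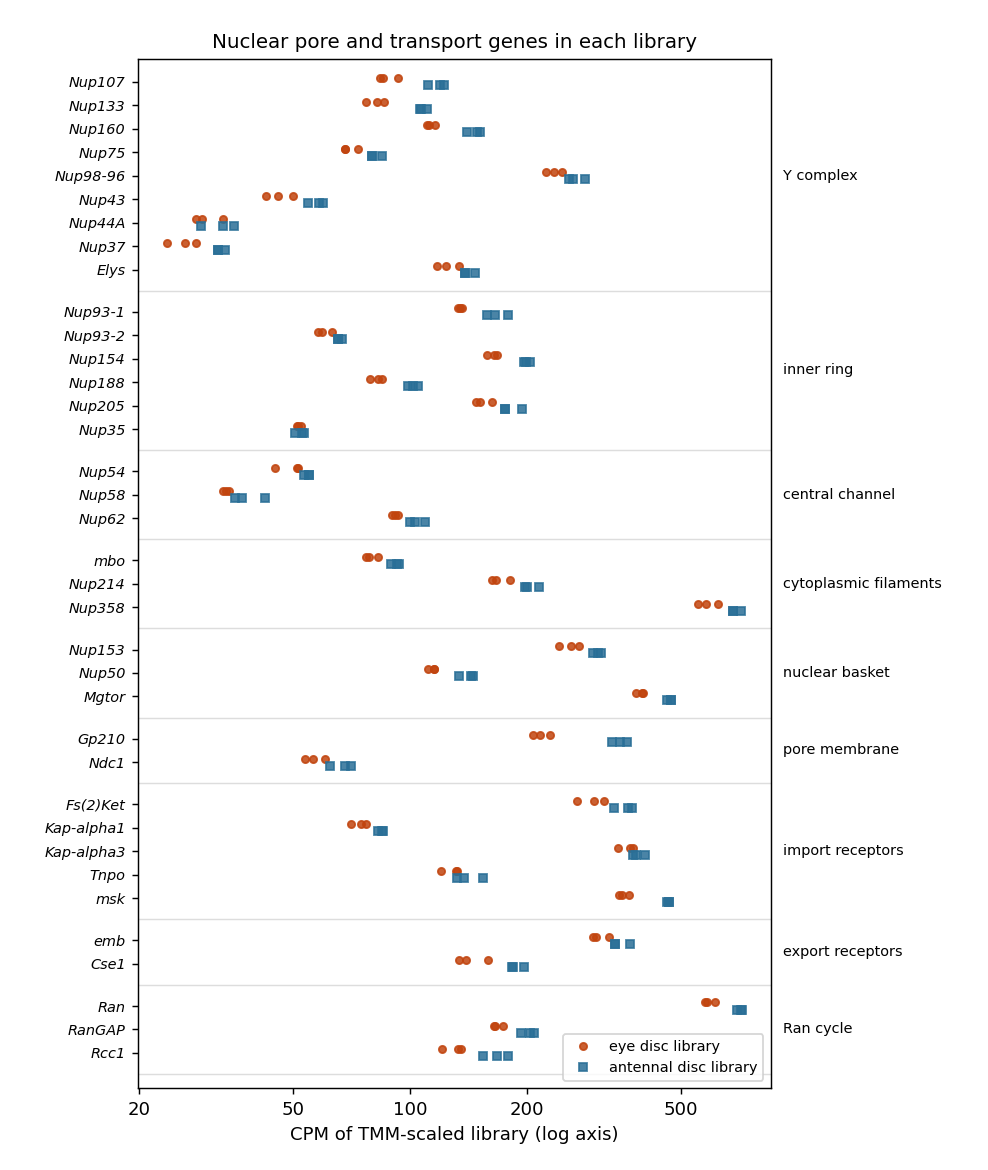
Level of each of the 36 members in each library, in CPM of the TMM-scaled library on a log axis, grouped by role. Circles are the 3 eye disc libraries and squares the 3 antennal disc libraries; for 32 members the squares all lie to the right of the circles, and the other 4 are Nup44A, Nup35, Kap-alpha3 and Tnpo.

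The number of called members fell when a library was left out. Without eye disc replicate 2, the library that stood apart, 16 members were higher in antennal disc, where 9.65% of all tested genes were, and the median was -0.22. Without antennal disc replicates 1, 2 and 3 the count was 16, 12 and 11, where 8.98%, 5.88% and 5.13% of all tested genes were called in that direction. Without eye disc replicates 1 and 3 it was 17 and 22, beside 11.1% and 9.21% of all tested genes. The median stayed between -0.29 and -0.22 in these 6 leave-one-out fits, each member kept a log2 fold change below 0 in each of them, and none was called higher in eye disc. In all 6 fits 11 members were called: Nup107, Nup133, Nup160, Nup93-1, Nup154, Nup188, Nup50, Mgtor, Gp210, msk and Cse1. The share of all tested genes called in all 6 fits was not counted. Scaling changed the count too: with total counts in place of TMM 9 members and 7.78% of all tested genes were called higher in antennal disc (median of the members -0.29). On log2(TPM + 1) with limma-trend 1 member and 3.47% of all tested genes were called higher in antennal disc, with a member median of -0.46, while the median of all genes moved to -0.18; with each library centred on its median, 29 members and 16.8% of all tested genes were, and both settings left none higher in eye disc.

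Eye disc replicate 2 was the lowest eye disc library for 25 of the 36 members and the highest for 2. Its members stood at a median of 0.962 of their eye disc mean. In antennal disc, replicate 3 was the highest library for 20 members. The spread between replicates was small: the coefficient of variation of a member had a median of 4.93% in eye disc (1.18% to 9.17%) and 3.98% in antennal disc.

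The largest difference was in a pore membrane gene. Gp210 (FBgn0266580, 2R, 5760862 to 5774324, plus strand; all coordinates are dm6) encodes a transmembrane glycoprotein that anchors the pore in the envelope. It was at 229.9, 207.8 and 215.8 CPM in eye disc replicates 1, 2 and 3, against 363.5, 331.7 and 347.1 CPM for antennal disc replicates 1, 2 and 3. The highest eye disc library lay well below the lowest antennal disc library. The log2 fold change was -0.67 ± 0.06 (SE; edgeR, adjusted p = 0.000648) and ran from -0.72 to -0.64 with 1 library left out. Ndc1 (FBgn0039125, 3R, 23924399 to 23926436), the other transmembrane nucleoporin in the set, was at 56.1, 53.5 and 60.5 CPM in eye disc, against 62.3, 68.1 and 70.3 CPM for antennal disc. Its libraries did not overlap, but it was not called (log2 fold change -0.24 ± 0.07, edgeR adjusted p = 0.0604, and 0.0481 with the replicate number as a block).

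Of 9 Y complex genes, which form the outer scaffold rings, 6 were higher in antennal disc, with 3 not called (median log2 fold change -0.32). Nup107 (FBgn0027868, 2L, 10733293 to 10736071), a stalk subunit of the complex, was at 92.9, 83.4 and 85.3 CPM in eye disc, against 119.7, 111.0 and 122.4 CPM for antennal disc. All 3 eye disc libraries were lower than any antennal disc library. Its partner in the stalk, Nup133 (FBgn0039004, 3R, 22690607 to 22694772), was at 85.9, 76.8 and 82.0 against 105.8, 110.7 and 106.7 CPM. Nup160 (FBgn0262647, 2L, 11123777 to 11129335), an arm subunit, was at 112.1, 110.5 and 116.0 against 140.2, 151.5 and 148.6 CPM. These 3 subunits also did not overlap between tissues and were the scaffold genes with the largest differences. Their log2 fold changes were -0.43 ± 0.07 for Nup107, -0.40 ± 0.06 for Nup133 and -0.38 ± 0.05 for Nup160 (SE; edgeR, adjusted p = 0.00464, 0.00386 and 0.00327).

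The remaining Y complex genes differed less or were less certain. Nup43 and Nup37, beta-propeller subunits, were at 45.9 ± 3.79 against 57.4 ± 2.64 CPM (SD, n = 3) and 25.9 ± 2.22 against 32.3 ± 0.784 CPM, each with a log2 fold change of -0.32, and Nup75 was at 69.8 ± 3.24 against 81.4 ± 2.78 CPM (-0.22). Nup43 and Nup37 were called in 2, and Nup75 in 1, of the 6 leave-one-out fits. Naus overlaps 2.17% of the span of Nup75. The sum of both genes was at 150.6 CPM in eye disc, against 166.7 CPM for antennal disc, and was not called (edgeR adjusted p = 0.0586). That sum also holds the difference of Naus itself. Nup98-96, a gene that yields both the mobile nucleoporin Nup98 and the scaffold subunit Nup96, was at 223.7, 235.5 and 246.9 CPM in eye disc, against 257.1, 263.1 and 282.5 CPM for antennal disc. Elys, which recruits the Y complex to chromatin after mitosis, was at 123.5, 117.2 and 133.4 against 138.2, 138.7 and 146.9 CPM. Neither of them overlapped between tissues, and neither was called without the replicate number as a block (edgeR adjusted p = 0.0738 and 0.0850) while both were with it (0.0271 and 0.0397). Nup44A, the homologue of Seh1, was at 32.9, 28.0 and 29.1 against 28.8, 35.2 and 33.0 CPM, and the tissues overlapped (log2 fold change -0.11 ± 0.10, edgeR adjusted p = 0.471). Its span lies wholly inside that of ACC on the other strand, so that its estimated counts could be shared with that gene. Summed with ACC, the level was 135.2 CPM in eye disc, against 171.1 CPM for antennal disc (-0.34, edgeR adjusted p = 0.0066), a sum that also holds the difference of ACC itself.

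**Figure D2:**
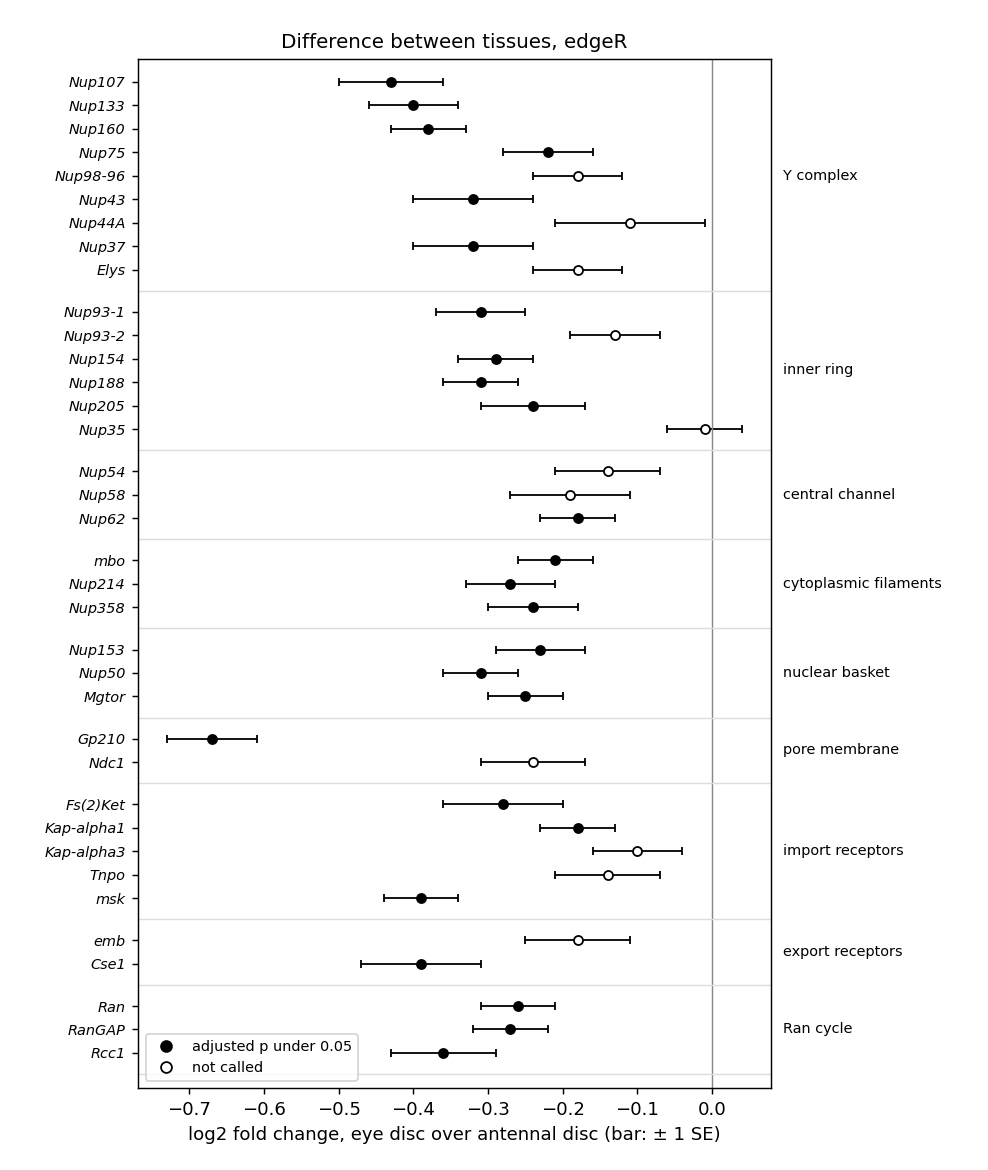
Log2 fold change of each member, eye disc over antennal disc, with bars of 1 SE to each side, grouped by role. Filled points passed an adjusted p under 0.05 (25 members) and open points did not (11 members); all points lie left of 0, Gp210 at -0.67 and Nup35 at -0.01 being the extremes.

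Of 6 inner ring genes, whose products link the scaffold to the membrane and the channel, 4 were higher in antennal disc, with 2 not called (median log2 fold change -0.27). Nup93-1 (FBgn0027537, X, 13822826 to 13825910), an inner ring linker, was at 134.9, 133.3 and 136.4 CPM in eye disc, against 158.2, 165.5 and 178.6 CPM for antennal disc. Nup188 (FBgn0033766, 2R, 12679967 to 12686179), a large scaffold subunit, was at 84.8, 78.6 and 82.8 against 101.5, 98.7 and 104.6 CPM. Nup154 (FBgn0021761, 2L, 11004820 to 11010921), the homologue of Nup155, was at 167.4, 158.3 and 165.1 against 197.0, 204.5 and 198.9 CPM. The eye disc libraries of these 3 genes lay below every antennal disc library. Log2 fold changes were -0.31 ± 0.06 for Nup93-1, -0.31 ± 0.05 for Nup188 and -0.29 ± 0.05 for Nup154 (SE; edgeR, adjusted p = 0.0108, 0.00758 and 0.00658). Nup205, a relative of Nup188, was at 151.6, 147.8 and 162.5 against 175.8, 175.3 and 194.5 CPM (log2 fold change -0.24) and was called in 1 of the 6 leave-one-out fits.

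The second Nup93 gene and Nup35 were the inner ring genes not called. Nup93-2 was at 62.7, 57.7 and 59.2 CPM in eye disc, against 65.2, 65.2 and 66.8 CPM for antennal disc, without overlap (log2 fold change -0.13 ± 0.06, edgeR adjusted p = 0.126). Nup93-2 and Nup93-1 are copies of one ancestral gene, and reads from stretches alike in both could be assigned to either. Whether their differences between tissues are unequal was not tested. Nup35, a membrane-binding nucleoporin, was at 51.0, 52.4 and 51.5 CPM in eye disc, against 52.7, 50.6 and 53.2 CPM for antennal disc. The tissues overlapped fully, with a log2 fold change of -0.01 ± 0.05 (edgeR adjusted p = 0.863), the smallest difference among the members. Hou overlaps 7.19% of the span of Nup35. The sum of both genes was at 133.7 CPM in eye disc, against 133.6 CPM for antennal disc (log2 fold change 0.0018). That sum also holds the difference of Hou itself.

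Of 3 central channel genes, whose products form the barrier of phenylalanine-glycine repeats, 1 was higher in antennal disc, with 2 not called (median log2 fold change -0.18). Nup62 was at 93.3, 91.7 and 89.6 CPM in eye disc, against 99.7, 109.4 and 102.7 CPM for antennal disc, without overlap. Its call was marginal (log2 fold change -0.18 ± 0.05, edgeR, adjusted p = 0.0496): it held in none of the 6 leave-one-out fits and was lost in the fit with the replicate block (0.0561). Its channel partners Nup58 (32.9, 33.4 and 34.0 against 35.3, 36.9 and 42.2 CPM) and Nup54 (51.4, 44.8 and 51.1 against 54.8, 53.1 and 54.8 CPM) did not overlap between tissues either and were not called, with log2 fold changes of -0.19 ± 0.08 for Nup58 and -0.14 ± 0.07 for Nup54 (SE; edgeR adjusted p = 0.136 and 0.189).

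All 3 cytoplasmic filament genes and all 3 nuclear basket genes were higher in antennal disc, with medians of -0.24 and -0.25. Nup214 (FBgn0010660, 2R, 22918937 to 22924742), which docks exported cargo, was at 162.7, 166.2 and 180.6 CPM in eye disc, against 198.1, 200.5 and 215.1 CPM for antennal disc (log2 fold change -0.27 ± 0.06, edgeR adjusted p = 0.0232). Its binding partner mbo, the Nup88 homologue, was at 79.3 ± 3.13 against 91.8 ± 2.04 CPM (SD, n = 3; -0.21). Nup358, the large Ran-binding filament protein known in vertebrates as RanBP2, was at 584.8 ± 34.2 against 691.7 ± 19.5 CPM (-0.24). No library of these genes overlapped between tissues, but with 1 library left out Nup214 was called in 2 of 6 fits, and mbo and Nup358 in 1.

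In the basket, Nup50 (FBgn0033264, 2R, 8123036 to 8125058), which helps release imported cargo, was at 115.6, 115.0 and 111.5 CPM in eye disc, against 134.1, 145.7 and 143.7 CPM for antennal disc. Mgtor (FBgn0013756, 2R, 11852617 to 11861202), the Tpr homologue that builds the basket filaments, was at 397.2, 382.7 and 399.4 against 471.4, 461.4 and 471.2 CPM. Both genes kept the tissues apart by more than the range of either. Log2 fold changes were -0.31 ± 0.05 for Nup50 and -0.25 ± 0.05 for Mgtor (SE; edgeR, adjusted p = 0.00746 and 0.0103). Nup153, which anchors the basket, was at 258.4 ± 15.7 against 304.1 ± 6.73 CPM (SD, n = 3; log2 fold change -0.23) and was called in 1 of the 6 leave-one-out fits.

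Among 5 import receptor genes, 3 were higher in antennal disc, with 2 not called (median log2 fold change -0.18). The importin beta family gene msk (moleskin, FBgn0026252, 3L, 8116179 to 8121579), known in Drosophila for carrying activated ERK into the nucleus, was at 366.7, 353.3 and 345.6 CPM in eye disc, against 464.8, 460.9 and 466.8 CPM for antennal disc. The antennal disc libraries lay close together and far above every eye disc library (log2 fold change -0.39 ± 0.05, edgeR adjusted p = 0.00212). Fs(2)Ket, importin beta itself, was at 298.6, 270.2 and 316.8 against 364.0, 335.0 and 372.9 CPM (-0.28 ± 0.08, edgeR adjusted p = 0.043). Its call held in 1 of the 6 leave-one-out fits.

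The importin alpha adaptors bind cargo for importin beta. Kap-alpha1 was at 74.1 ± 3.18 against 84.1 ± 1.35 CPM (SD, n = 3; log2 fold change -0.18, edgeR adjusted p = 0.0463), a call that was lost in the fit with the replicate block (0.059) and in 5 of the 6 leave-one-out fits. Kap-alpha3 was at 376.7, 368.8 and 344.2 CPM in eye disc, against 404.5, 376.4 and 383.7 CPM for antennal disc, where the lowest antennal disc library fell just below the highest eye disc library (-0.10 ± 0.06, edgeR adjusted p = 0.272). Transportin, Tnpo, was at 132.1, 120.5 and 131.5 against 153.9, 132.0 and 137.8 CPM, with antennal disc replicate 2 at the level of the eye disc libraries (-0.14 ± 0.07, edgeR adjusted p = 0.213).

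Of 2 export receptor genes, 1 was called. Cse1 (FBgn0022213, 2L, 16821156 to 16825207), which returns importin alpha to the cytoplasm, was at 158.7, 133.5 and 139.4 CPM in eye disc, against 197.2, 184.0 and 183.5 CPM for antennal disc (log2 fold change -0.39 ± 0.08, edgeR adjusted p = 0.0135). Its libraries did not overlap between tissues. The span of Cse1 lies wholly inside that of mdy on the other strand; summed with mdy the log2 fold change was -0.25 (edgeR adjusted p = 0.0187). The CRM1 homologue emb, the main receptor for proteins with leucine-rich export signals, was at 326.6, 295.9 and 301.7 against 370.1, 337.8 and 337.9 CPM without overlap (-0.18 ± 0.07). It was not called (edgeR adjusted p = 0.0923), but was with the replicate number as a block (0.0305).

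All 3 Ran cycle genes were higher in antennal disc (median log2 fold change -0.27). Ran (FBgn0020255, X, 11144852 to 11148716) was at 611.8, 576.7 and 584.0 CPM in eye disc, against 697.9, 712.5 and 718.3 CPM for antennal disc. RanGAP (FBgn0003346, 2L, 19441959 to 19447317), its GTPase-activating protein, was at 173.9, 165.7 and 164.6 against 193.6, 209.2 and 204.5 CPM. Rcc1 (FBgn0002638, 3L, 5930262 to 5932773), its chromatin-bound exchange factor, was at 135.3, 121.1 and 133.1 against 154.7, 167.2 and 179.0 CPM. In each of the 3 genes every eye disc library lay below every antennal disc library.

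The log2 fold changes were -0.26 ± 0.05 for Ran, -0.27 ± 0.05 for RanGAP and -0.36 ± 0.07 for Rcc1 (SE; edgeR, adjusted p = 0.0116, 0.0131 and 0.0149). Ran was called in 5, and RanGAP and Rcc1 in 4, of the 6 leave-one-out fits. Other genes cover 50.1% of the span of RanGAP. The sum of RanGAP with them had a log2 fold change of -0.19 and was not called (edgeR adjusted p = 0.123). That sum also holds the differences of those genes.

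Compared per length, as CPM per kb of exon and averaged over the 6 libraries, the members spanned 21.5-fold. Ran was the highest at 342.6 CPM per kb, followed by Kap-alpha3 at 131.0, msk at 103.0, RanGAP at 77.2 and Nup358 at 74.6 CPM per kb. The lowest were Nup188 at 15.9 and Nup58 at 19.7 CPM per kb, and the median was 35.7. Ran stood apart from Kap-alpha3, and Kap-alpha3 from msk, in their ranges over 6 libraries. The lowest library of Nup58 and the highest of Nup188 were both at 18.1 CPM per kb, parted only in further digits. The other 32 of 35 neighbours in the order overlapped. The 2 Nup93 genes differed in level, Nup93-1 at 54.2 and Nup93-2 at 25.2 CPM per kb, as did the importin alpha genes Kap-alpha3 and Kap-alpha1 (34.1). The order was much the same in both tissues: 12 members held the same rank, and the largest shift was that of Gp210, from rank 15 in antennal disc to rank 25 in eye disc. The order depends on the length used. By the deposited TPM, Ran was again highest in eye disc (mean 328.5). RanGAP (66.4) lay below Nup62 (147.1) and Nup358 (131.6) there, and Nup44A (23.4) below Nup188 (28.0). Other genes cover 50.1% of the span of RanGAP.

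**Figure D3:**
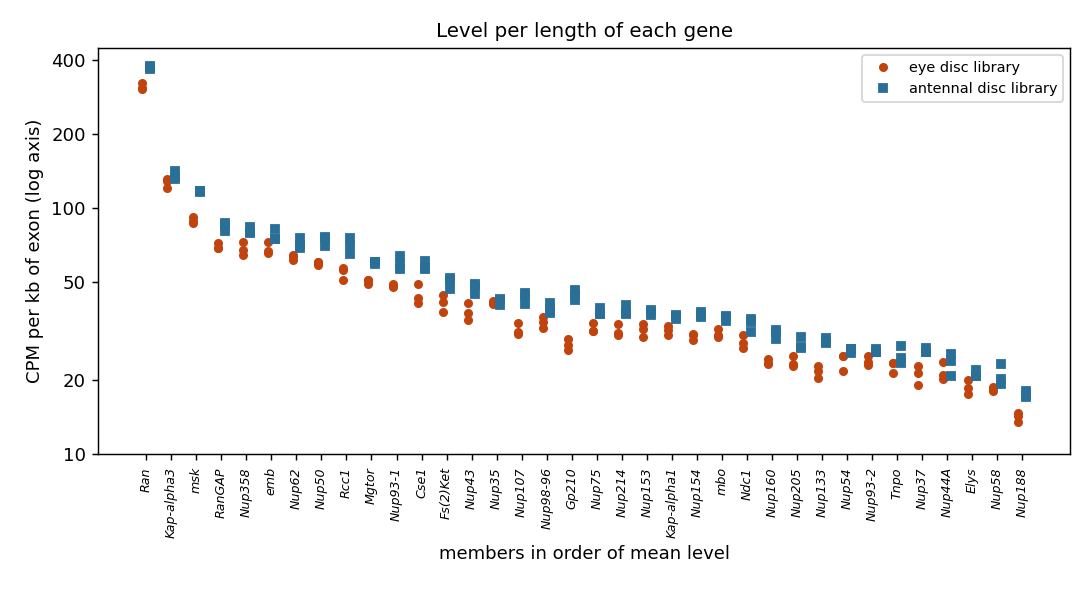
Level of each member per length, in CPM per kb of exon on a log axis, in order of the mean over 6 libraries. Circles are eye disc and squares antennal disc libraries; Ran at 342.6 CPM per kb stands above all others, and most neighbours in the order overlap.

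The members lie on 5 chromosome arms, with 10 on 3R, 9 on 2R, 7 on 2L, 6 on X and 4 on 3L. The median log2 fold change was between -0.29 on 2L and -0.22 on 3R. Nup37 and Nup358 are direct neighbours on the plus strand of 3R, 247 bases apart (25247658 to 25249100 and 25249348 to 25258672), and both were higher in antennal disc. Of the 20 members whose span overlaps no other gene, 15 were higher in antennal disc, with 5 not called (median -0.25).

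Other genes of nuclear transport, taken from lists chosen for this comparison, were called in smaller numbers. Of 14 tested transport receptors and Ran cofactors outside the set, 5 were higher in antennal disc, none in eye disc (none at an unadjusted p under 0.05, and none by DESeq2) and 9 were not called (median log2 fold change -0.15). The importin Karybeta3 was at 401.4, 422.1 and 392.7 CPM in eye disc, against 520.5, 499.8 and 489.4 CPM for antennal disc (-0.31, edgeR adjusted p = 0.00782). The others called were Arts (-0.31), Apl (-0.43), Ipo9 (-0.23) and Ranbp21 (-0.21). With the replicate block ebo was called too, at 128.6, 134.9 and 135.6 against 144.5, 147.3 and 154.7 CPM (edgeR adjusted p = 0.0433, and 0.0623 without the block). Ipo9 and Ranbp21 were each called in 4 of the 6 leave-one-out fits. Arts and Apl are closely related copies whose reads may be shared. Ntf-2, which carries Ran back into the nucleus, was at 178.3, 178.2 and 167.0 against 180.2, 174.3 and 158.0 CPM, overlapping fully (log2 fold change 0.03, edgeR adjusted p = 0.763). The Ran copy Ran-like and the importin alpha copy alphaKap4 had no counts in any library, and Ntf-2r had at most 9.

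Of 5 further pore-associated genes, Aladin was higher in antennal disc (49.7, 42.9 and 48.9 against 56.5, 57.9 and 55.5 CPM, log2 fold change -0.26) and 4 were not called, Sec13 and Rae1 among them. The share of all tested genes called in that direction was 11.7%. The call of Aladin was lost in the fit with the replicate block (edgeR adjusted p = 0.0564) and in 5 of the 6 leave-one-out fits.

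Of 15 tested mRNA export genes, 1 was higher in each tissue and 13 were not called (median log2 fold change -0.083). Among all tested genes, 14.6% were called higher in eye disc and 11.7% higher in antennal disc. The main mRNA export receptor sbr was at 125.6, 126.4 and 129.8 CPM in eye disc, against 119.0, 126.9 and 130.9 CPM for antennal disc, with full overlap (log2 fold change 0.02, edgeR adjusted p = 0.822). The THO complex gene thoc5 was higher in eye disc, at 87.3, 80.0 and 79.2 against 48.3, 50.1 and 51.7 CPM (0.71 ± 0.06, edgeR adjusted p = 0.000539). Its companion thoc6 was higher in antennal disc (-0.22), although other genes cover 60.3% of its span. Of 10 lamina and inner nuclear membrane genes, klar, which links nuclei to microtubules and positions photoreceptor nuclei, was higher in eye disc (886.3, 822.1 and 919.7 against 668.6, 638.9 and 685.2 CPM, 0.40). The lamin B receptor gene LBR was higher in antennal disc (-0.27), with 8 genes not called (median -0.091). Of the 6 leave-one-out fits, 2 called thoc6 and 2 called LBR. With the replicate block 3 lamina and inner nuclear membrane genes were higher in antennal disc, where 14.1% of all tested genes were. The added genes were the A-type lamin gene LamC, at 30.6, 59.3 and 37.2 against 45.6, 71.9 and 66.2 CPM (edgeR adjusted p = 0.0271, and 0.232 without the block), and the nesprin gene Msp300, at 375.0, 242.9 and 363.4 against 485.9, 320.8 and 485.7 CPM (0.00356, and 0.257 without). The span of LamC lies wholly inside that of ttv, so that its estimated counts could be shared with that gene. Both LamC and Msp300 overlapped between tissues, and in each numbered pair the eye disc library was the lower. Whether these lists differ from the 36 members was not tested.

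**Figure D4:**
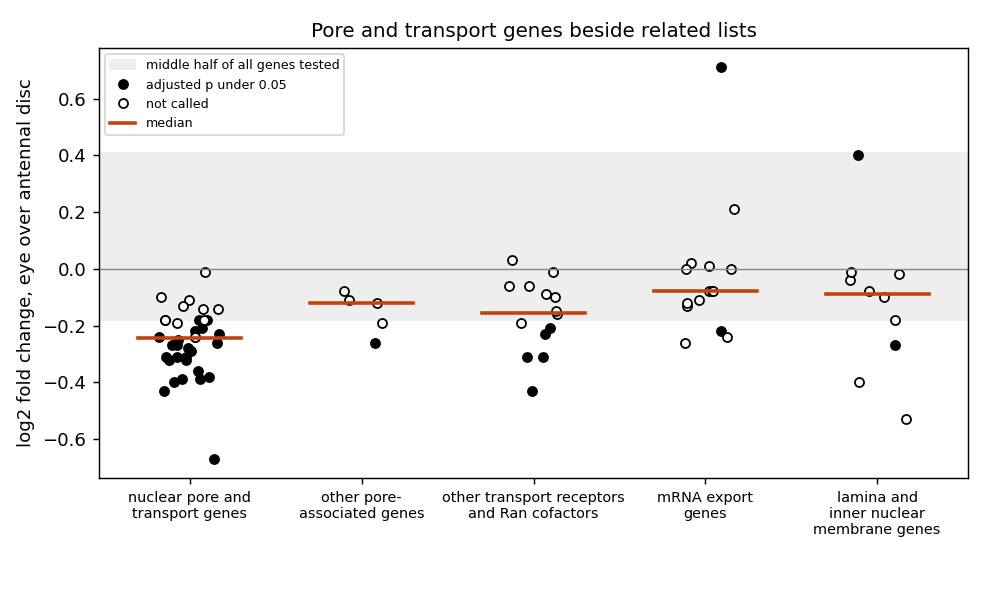
Log2 fold change, eye disc over antennal disc, of the 36 members and of the tested genes of 4 related lists; filled points passed an adjusted p under 0.05, bars are list medians and the grey band holds the middle of all tested genes, from the lower quartile of -0.18 to the upper quartile of 0.41. The members have the lowest median (-0.25), and thoc5 (0.71) and klar (0.40) are the called genes above 0.

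Markers of other cell types also differed between the tissues. Among all tested genes, 14.6% were called higher in eye disc and 11.7% higher in antennal disc. Of 8 neuronal genes, 7 were higher in eye disc and 1 was not called, and their summed level was 1023 to 1567 CPM in eye disc, against 118.6 to 137.5 CPM for antennal disc libraries. Of 6 glial genes 4, and of 6 hemocyte genes 4, were higher in eye disc, with summed levels of 656.2 to 884.6 against 374.4 to 420.4 CPM and of 680.2 to 731.2 against 410.9 to 499.6 CPM. Of 6 muscle genes, 2 were higher in antennal disc, at a summed 133.1 to 474.4 against 531.9 to 711.8 CPM. These were Mhc, called in 2 of the 6 leave-one-out fits, and bt, called in all 6. With the replicate block all 6 hemocyte genes were higher in eye disc, Hml (edgeR adjusted p = 0.00593, and 0.168 without the block) and Ppn (0.0492 and 0.116) being the added ones. The share of all tested genes higher in eye disc with the block was not counted. No marker of these lists was at 0 in all libraries. Their part in the lower level of nuclear pore and transport genes in eye disc was not tested.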

How the data were processed

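Messenger RNA was measured in 3 eye disc and 3 antennal disc libraries, made with a stranded Illumina mRNA kit per the labels' protocols and grouped by sample title. The authors deposited estimated counts and TPM per gene identifier in kallisto's layout, per the file headers. The submitters' processing notes name FastQC, kallisto, bedtools and dm6. No version, strand setting or annotation release is given in the sources used here. The deposited lists that repeat TPM for genes in selected genomic regions hold no member and were not used.

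The listed length equals the whole gene span, introns included, for 99.3% of genes with several exons, and 47.6% of spans overlap another gene, so estimated counts can be shared out between overlapping genes. Symbols, dm6 coordinates and exon lengths came from Ensembl release BDGP6.54.115 and matched 17622 identifiers. Levels per kb divide CPM by the merged exon length.

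Estimated counts were rounded, filtered with filterByExpr (minimum count 10), scaled by TMM and compared between tissues, without further terms, by the robust quasi-likelihood test of edgeR 4.0.16 (R 4.3.3); p-values of all 9901 genes were adjusted by Benjamini-Hochberg. SE is the absolute log2 fold change divided by the square root of F. Values are mean ± SD over 3 libraries. Alternatives used DESeq2 1.42.0, limma 3.58.1, other scalings and filters, the replicate block, each library left out, and sums over overlapping genes. The fits were run on simulated counts with planted changes larger than that of any member, which does not test differences as small as those reported here. Plots used matplotlib 3.10.9.

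Samples of equal replicate number deviated together from their tissue means across genes. Correlations were 0.415, 0.308 and 0.242, against at most 0.0819 between unequal numbers. The numbers were therefore taken to pair the samples, from this check and not from the labels. The main fit, which gave the calls, SE and adjusted p unless a block is named, left this pairing out. With the replicate block 27 members were higher in antennal disc, against 25 in the main fit. Members and lists were chosen with earlier results of these data known. Values per library, SE and adjusted p were given for the 15 called members of smallest adjusted p and, beyond these, for the member of largest change in each role; up to 4 called genes of smallest adjusted p were named from each related list. The values per library of other members, and Ranbp21, ebo, LamC, Msp300, Ntf-2, sbr, Sec13, Rae1 and the related genes without counts, were added after their values were seen.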

Additional observations from a re-analysis of the deposited data

How the results depend on the processing

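The count of 25 members higher in antennal disc was 23 to 28 with RLE size factors, DESeq2, both other count filters, the replicate block and sums over overlapping genes. It was 1 with limma-trend on log2(TPM + 1), where the median of all genes moved by -0.18, 9 with total counts only and 29 with limma-trend on median-centred log2(TPM + 1), the last 2 settings chosen after seeing the data. It was 15 among the 20 members without overlap, where fewer genes are counted, and 11 to 22 with 1 library left out, where fewer samples are fitted. No setting called a member higher in eye disc. For the related lists together, 10 called genes became 0 with limma-trend on log2(TPM + 1), 4 with total counts only and 5 to 12 with 1 library left out. In the main fit 26.4% of all tested genes were called in either direction. The cause of the changes with TPM and total counts was not tested. With the replicate block 27 members and 14.1% of all tested genes were called higher in antennal disc, and with DESeq2 28 members and 15.5%, against 25 members and 11.7%. By the block Nup62 and Kap-alpha1 were lost and Nup98-96, Elys, Ndc1 and emb gained, and no other member's call changed; 12 genes of the related lists were called, Aladin being lost and ebo, LamC and Msp300 gained. Among the members the log2 fold change changed sign in a single case, the sum of Nup35 and Hou (0.0018), which also holds the difference of Hou. The fewest counts of a member in a library were 369, and each tissue has 3 replicates.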

Other observations

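An identifier without a name in the annotation, FBgn0267727, has a listed length of 3196 bases. This equals the span of Pen in the annotation (2L, 10056900 to 10060095), and it is the single identifier of that length among the 131 without annotation. It was at 789.4, 712.5 and 717.4 CPM in eye disc replicates 1, 2 and 3 and at 921.6, 903.6 and 915.2 CPM in antennal disc replicates 1, 2 and 3, without overlap (log2 fold change -0.30 ± 0.06, edgeR, Benjamini-Hochberg adjusted p = 0.0127). Because no source used here names it, it was not counted among the members.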
